A study of Mus musculus with 112 samples.

Results

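The comparison asked whether caloric restriction (CR) moved heart transcripts by a different amount in 129S1/SvImJ mice than in C3H/HeJ mice. For each gene the CR minus control difference in 129S1/SvImJ hearts was set against the CR minus control difference in C3H/HeJ hearts, on the log2 scale. The rule that defines the comparison uses strain and diet and no measured values, and it took in 32 of the 112 heart arrays of the series, 8 in each of 4 groups. Of 19938 genes measured, 35 (0.176%) had restriction effects that differed between these strains at an adjusted p of 0.05, 16 (0.0802%) with the more positive effect in 129S1/SvImJ and 19 (0.0953%) with the more negative effect there.

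The 4 groups were 129S1/SvImJ mice on a CR diet, 129S1/SvImJ mice kept on the control diet, C3H/HeJ mice on a CR diet and C3H/HeJ mice kept on the control diet. All were male mice from 1 supplier, housed singly, and all were fed alike, at 84 kcal per week, until diets began at 8 weeks of age. Hearts were collected after an overnight fast at 22 weeks of age, 14 weeks into the diets, and each array held RNA of a separate mouse. According to the feeding methods, the ration of the 129S1/SvImJ CR mice was lowered further during the study and that of the C3H/HeJ CR mice was not. Strain and the size of the food cut therefore cannot be told apart in any difference given here. The hearts were profiled as whole tissue, in which fewer cells of a type and less RNA per cell cannot be told apart.

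The fasting heart runs largely on fatty acids that adipose tissue releases. Those fatty acids are ligands of PPAR-alpha, a nuclear receptor that turns on genes for fatty acid import, oxidation and storage, among them Pdk4, Angptl4 and Ucp3. The circadian clock of heart muscle is a loop in which the ARNTL (BMAL1) and CLOCK proteins switch on the Per, Cry, Nr1d and PAR bZIP genes (Dbp, Tef, Hlf), whose products feed back on them. Meal timing and food restriction are known to shift this loop in peripheral tissues.

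Signals are log2 values, so a difference of 1 is a doubling, and the text gives the lowest, median and highest of the 8 arrays of a group. The 32 arrays had medians of 5.32 to 5.41, each array correlated with the mean of the rest of its group at 0.9855 to 0.9965, and no pair was identical. Ventricular cardiomyocyte markers averaged 10.4 to 10.96 in every array. Markers of atrial cardiomyocytes did not sit alike in the strains. Their mean was 6.87 to 6.96 in 129S1/SvImJ CR hearts and 6.85 to 7.00 in 129S1/SvImJ control hearts, but 6.79 to 10.04 (median 8.01) in C3H/HeJ CR hearts and 6.71 to 10.20 (median 6.96) in C3H/HeJ control hearts. In 7 C3H/HeJ arrays, CR replicates 1, 5, 6 and 7 and control replicates 4, 6 and 8, the atrial mean was 8.27 or higher, against 7.28 or lower in the other C3H/HeJ arrays. White adipocyte markers averaged 6.87 to 7.28 in 129S1/SvImJ CR and 6.95 to 7.40 in 129S1/SvImJ control hearts, and spread more in C3H/HeJ, at 6.60 to 8.34 in CR and 6.73 to 8.13 in control hearts. The highest adipocyte means were in arrays that were also high in atrial markers.

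**Figure D1:**
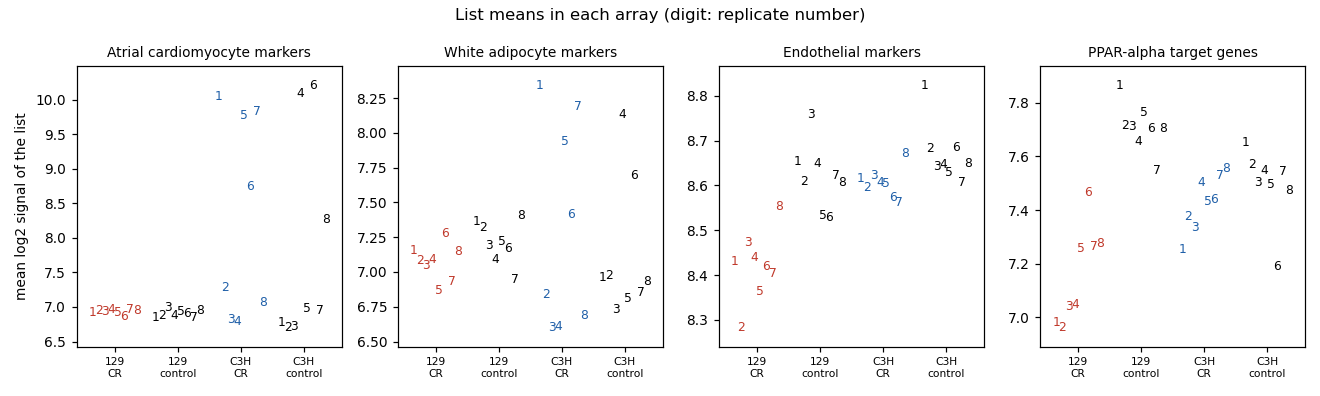
Mean log2 signal of 4 gene lists in each array (each digit is 1 array, at its replicate number), with the 129S1/SvImJ CR and control groups (129 on the axis) left of the C3H/HeJ CR and control groups (C3H). Atrial markers reach 10.04 and 10.20 in C3H/HeJ hearts only, while the PPAR-alpha target mean is lowest in the 129S1/SvImJ CR hearts.

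Without those 7 C3H/HeJ arrays, a choice made after the data were seen, 25 arrays remained and 1 gene of the 35 kept an adjusted p under 0.05 (Tril, adjusted p = 0.0378). The estimates of the 35 kept their sign, were 0.647 to 1.40 times the full estimates (median 0.931), and all 35 had an unadjusted p under 0.05. The 35 were selected on arrays that include these 25, which favours such values, so they are a description only. With the atrial and white adipocyte means as covariates in the fit of all 32 arrays, 45 genes passed and 30 of them were among the 35. The part of atrial tissue in the calls was not tested beyond these values.

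Counted strain by strain, more genes passed under CR in 129S1/SvImJ. In 129S1/SvImJ hearts 1361 genes (6.83%) passed, 774 higher (3.88%) and 587 lower (2.94%) in CR hearts, and in C3H/HeJ hearts 11 genes (0.0552%) passed, 5 higher (0.0251%) and 6 lower (0.0301%). With the atrial and white adipocyte means as covariates the counts were 438 in 129S1/SvImJ and 71 in C3H/HeJ. Of the 12 measured adipocyte markers, 3 were lower and 1 higher under CR in 129S1/SvImJ (2.94% and 3.88% of all genes). The covariates can thus take up part of the diet effect, so these counts do not isolate tissue makeup. Without the atrial-high arrays 26 genes passed in C3H/HeJ. The median within-group SD of a gene was 0.17 in both strains, and the median standard error of the effect was 0.0836 in 129S1/SvImJ and 0.0838 in C3H/HeJ. Of the 1361 genes, 1195 (87.8%) had an effect of the same sign in C3H/HeJ, against 62.6% of all genes. The 774 that were higher in 129S1/SvImJ CR hearts had a median effect of 0.34 there and 0.13 in C3H/HeJ, and the 587 that were lower had medians of -0.32 and -0.08. For 1330 of the 1361 the difference itself did not pass, so most genes called in 129S1/SvImJ alone were not shown to respond differently in C3H/HeJ.

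**Figure D2:**
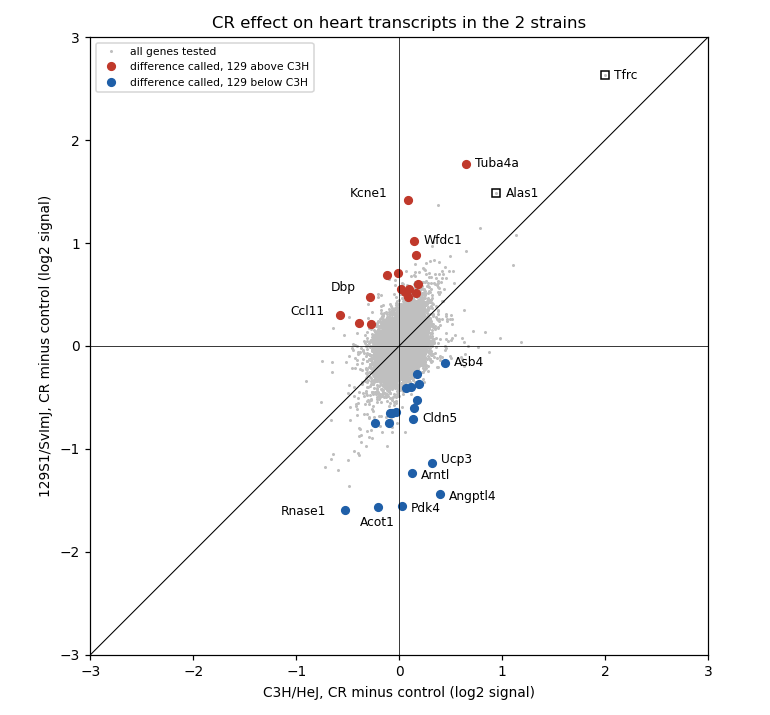
Restriction effect of each gene (CR minus control, log2) in 129S1/SvImJ hearts against that in C3H/HeJ hearts, for 19938 genes, with the 35 genes whose effects differed in red (more positive in 129S1/SvImJ) or blue (more negative), and Tfrc and Alas1 as open squares. Most coloured points lie far from 0 on the 129S1/SvImJ axis and near 0 on the C3H/HeJ axis.

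Of the 35 genes, 31 passed within 129S1/SvImJ (6.83% of all genes) and 2 within C3H/HeJ (0.0552%), namely Ccl11, and Tuba4a, which passed in both. Within neither strain passed 3 (Asb4, Bhlhe41 and Nr1d2). The effects of the 35 had opposite signs in 18 and the same sign in 17, against the same sign in 62.6% of all genes. The effect was the larger one in 129S1/SvImJ for 31. The CR and control arrays did not overlap in 129S1/SvImJ for 24 of the 35, against 1.83% of all genes, and in C3H/HeJ for 1, against 0.0552%. The selection used these arrays, so the counts describe the 35 genes and support nothing. The fold of the difference ran between 1.28 and 2.53 for the genes with the more positive 129S1/SvImJ effect and between 1.37 and 3.56 for those with the more negative one, and it was 2 or more for 8 genes. The 129S1/SvImJ CR hearts were not all alike. Among the 31 genes that passed within 129S1/SvImJ, CR replicate 6 was the array nearest the controls for 12 and CR replicate 8 for 10, while CR replicate 2 was the farthest for 11. Without CR replicate 6 the difference passed for 62 genes, all 35 among them, and without CR replicate 4 for 17.

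The largest differences in size were those of Angptl4, Pdk4, Ucp3 and Acot1, PPAR-alpha targets that handle fatty acids. Arntl (-1.35) and Kcne1 (1.34) were close to Acot1 (-1.36), and the target Plin2 had a smaller one (-0.56). Angptl4, Pdk4, Ucp3, Acot1 and Plin2 were lower in 129S1/SvImJ CR hearts than in their controls, with effects between -1.56 and -0.65 on the log2 scale, and none of them passed in C3H/HeJ. Of 21 measured PPAR-alpha targets, these 5 passed the test of the difference in the negative direction, against 0.0953% of all genes. None passed in the positive direction, and 17 had a difference below 0. The median difference over the 21 was -0.26, against -0.00469 over all genes. Within 129S1/SvImJ 14 of the 21 were lower in CR hearts (2.94% of all genes were), none was higher, and the median effect was -0.36. Within C3H/HeJ none passed and the median effect was -0.09. The gene lists were chosen with earlier results of these data known. Counts and medians of lists, here and below, are therefore a description only. With the replicate number as a block within each strain the differences of Angptl4 and Ucp3 passed. With all 14 groups in 1 fit those of Angptl4, Pdk4, Ucp3 and Acot1 did. Of 20 measured glucocorticoid-induced genes, 2 also had a passing negative difference (0.0953% of all genes), Angptl4 among them. The median difference of that list was -0.07, and the regulator behind these genes was not tested.

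Angptl4, a secreted inhibitor of lipoprotein lipase, had signals of 5.39, 5.90 and 6.79 (lowest, median, highest) in 129S1/SvImJ CR hearts and 6.40, 7.36 and 8.17 in their controls. In C3H/HeJ it had 6.55, 7.45 and 7.77 in CR hearts and 6.26, 6.95 and 7.30 in controls. Of the 8 129S1/SvImJ CR hearts, 7 lay below every control of the strain, whereas in C3H/HeJ the groups overlapped with the higher median under CR. The effects were -1.44 (adjusted p = 0.000268) and 0.39 (adjusted p = 0.626), and their difference of -1.83 (SE 0.29, 95% CI -2.42 to -1.25) was the largest in size among the 35, a 3.56-fold change with a limma adjusted p of 0.00438.

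Pdk4, the kinase that shuts down pyruvate dehydrogenase and so spares glucose, was at 9.63, 11.00 and 12.12 in 129S1/SvImJ CR hearts and 12.21, 12.38 and 12.57 in their controls. C3H/HeJ CR hearts had 11.76, 12.12 and 12.33 and C3H/HeJ controls 11.77, 12.10 and 12.26. Every 129S1/SvImJ CR heart was below every control of that strain, with the CR group spread over more than 2 log2 units, and the C3H/HeJ groups covered nearly the same interval. The difference was -1.58 (SE 0.32, 95% CI -2.23 to -0.93, adjusted p = 0.0252), made of effects of -1.56 and 0.02.

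Ucp3, a carrier of the inner mitochondrial membrane, ranged over 6.51, 7.23 and 8.27 in 129S1/SvImJ CR hearts and 8.04, 8.31 and 8.75 in controls. Its C3H/HeJ values were 7.18, 8.09 and 8.34 under CR and 6.88, 7.71 and 8.02 on the control diet. The medians thus stood in opposite order in the strains, although the C3H/HeJ effect of 0.32 did not pass (adjusted p = 0.764). The 129S1/SvImJ effect was -1.13 (adjusted p = 0.000656) and the difference -1.45 (SE 0.28, 95% CI -2.02 to -0.88, adjusted p = 0.0196).

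Acot1, a thioesterase that releases fatty acids from coenzyme A in the cytosol, was at 4.88, 5.35 and 6.44 in 129S1/SvImJ CR hearts and 6.81, 6.93 and 7.27 in controls. C3H/HeJ hearts were low on both diets, at 5.09, 5.60 and 6.39 under CR and 4.80, 5.85 and 6.60 on the control diet. The 129S1/SvImJ groups did not overlap, and the medians of the 129S1/SvImJ CR hearts and of both C3H/HeJ groups lay below every 129S1/SvImJ control. Effects of -1.56 and -0.20 gave a difference of -1.36 (SE 0.27, 95% CI -1.91 to -0.80, adjusted p = 0.0244). Acot2, a near copy of Acot1 whose probes may share signal with it, had effects of -1.36 and -0.49 and a difference of -0.87 that did not pass (adjusted p = 0.181), so the value of either gene alone is uncertain.

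Plin2, a coat protein of lipid droplets, had 8.11, 8.26 and 8.42 in 129S1/SvImJ CR hearts and 8.63, 8.88 and 9.31 in controls, again without overlap. In C3H/HeJ the values were 8.52, 8.67 and 9.004 under CR and 8.57, 8.76 and 9.14 on the control diet. The difference was -0.56 (SE 0.12, 95% CI -0.81 to -0.32, adjusted p = 0.0383).

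Pdk4, Ucp3 and Acot1 are shown with the 250 bases before their transcription start, because they carry the larger lipid differences and the RefSeq table used here holds their promoters. Sequences are RefSeq on GRCm38.p6, read 5′ to 3′ on the strand of the gene. Pdk4 lies at chr6:5496279-5496528 (minus strand), Ucp3 at chr7:100472741-100472990 (plus strand) and Acot1 at chr12:84009252-84009501 (plus strand). Capitals mark matches, on either strand, to AGGTCA (the single repeat unit of nuclear receptor elements), CACGTG (the clock E-box), TATAAA and CCAAT.
Pdk4: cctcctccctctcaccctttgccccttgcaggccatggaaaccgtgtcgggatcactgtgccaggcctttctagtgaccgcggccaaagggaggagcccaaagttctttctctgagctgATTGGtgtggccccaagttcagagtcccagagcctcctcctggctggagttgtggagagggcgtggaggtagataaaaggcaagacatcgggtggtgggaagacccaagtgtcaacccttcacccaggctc
Ucp3: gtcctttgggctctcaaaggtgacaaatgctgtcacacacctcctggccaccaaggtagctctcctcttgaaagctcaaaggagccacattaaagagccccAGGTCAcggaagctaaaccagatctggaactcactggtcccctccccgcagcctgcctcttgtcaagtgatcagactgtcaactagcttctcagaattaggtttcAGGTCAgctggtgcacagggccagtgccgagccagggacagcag
Acot1: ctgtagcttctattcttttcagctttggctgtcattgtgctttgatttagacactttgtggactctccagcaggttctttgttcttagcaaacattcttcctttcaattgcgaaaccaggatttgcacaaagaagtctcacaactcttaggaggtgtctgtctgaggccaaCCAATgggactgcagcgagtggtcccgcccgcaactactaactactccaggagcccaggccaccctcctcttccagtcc
Ucp3 held 2 copies of AGGTCA, starting at -149 and -44 from the start site. Pdk4 and Acot1 held 1 CCAAT match each, at -131 (read as ATTGG) and -79. Among 32817 promoters of the same length, 14% held AGGTCA, 33.8% CCAAT, 12.4% TATAAA, 6.02% CACGTG and 0.0335% the full PPAR element (DR1, 2 copies of AGGTCA with 1 base between). Of 29 genes with a passing difference that the naming rule took in, 23 had a promoter in the table; 5 of the 23 held AGGTCA, 4 held CACGTG, 14 held CCAAT, and none held TATAAA or the full element. A gene was counted if any of its listed starts held the letters, whereas the shares are of single promoters, so counts and shares differ in unit. These matches describe letters in the window and no binding was measured.

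Further genes of fatty acid entry and release were lower in 129S1/SvImJ CR hearts, but their differences between strains did not pass. Mlycd, which removes the malonyl-CoA brake on fatty acid entry, had effects of -0.82 and -0.32 in 129S1/SvImJ and C3H/HeJ, and Cpt1a, an isoform of the entry enzyme itself, had -0.36 and 0.02 (adjusted p of the difference 0.426 and 0.265). The lipases Pnpla2 and Lipe, which free fatty acids from stored triglyceride, came nearest the threshold. Pnpla2 had effects of -0.84 and -0.17 with a difference of -0.67 (95% CI -1.003 to -0.34, adjusted p = 0.0924). Lipe had effects of -0.84 and -0.07 with a difference of -0.76 (95% CI -1.15 to -0.38, adjusted p = 0.103). Of 18 enzymes and carriers of mitochondrial fatty acid oxidation, 6 were lower in 129S1/SvImJ CR hearts (2.94% of all genes), among them Cpt2 at -0.47 and Hadha at -0.27, none passed in C3H/HeJ, and no difference passed (median difference -0.14). Of 20 genes of triglyceride storage and lipolysis, 8 were lower in 129S1/SvImJ CR hearts (2.94% of all genes) and 3, Fitm1, Dgat2 and Abhd5, were higher (3.88%). Plin2 alone of the 20 had a passing difference (0.0953% of all genes in the negative direction, median difference of the list -0.08). All 12 measured white adipocyte markers, Lipe and Pnpla2 among them, had a difference below 0 (median -0.20), and none passed. The difference was -0.19 for Plin1 (95% CI -1.34 to 0.95) and -0.67 for Adipoq (95% CI -1.81 to 0.48), and the part of adipose tissue was not tested.

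**Figure D3:**
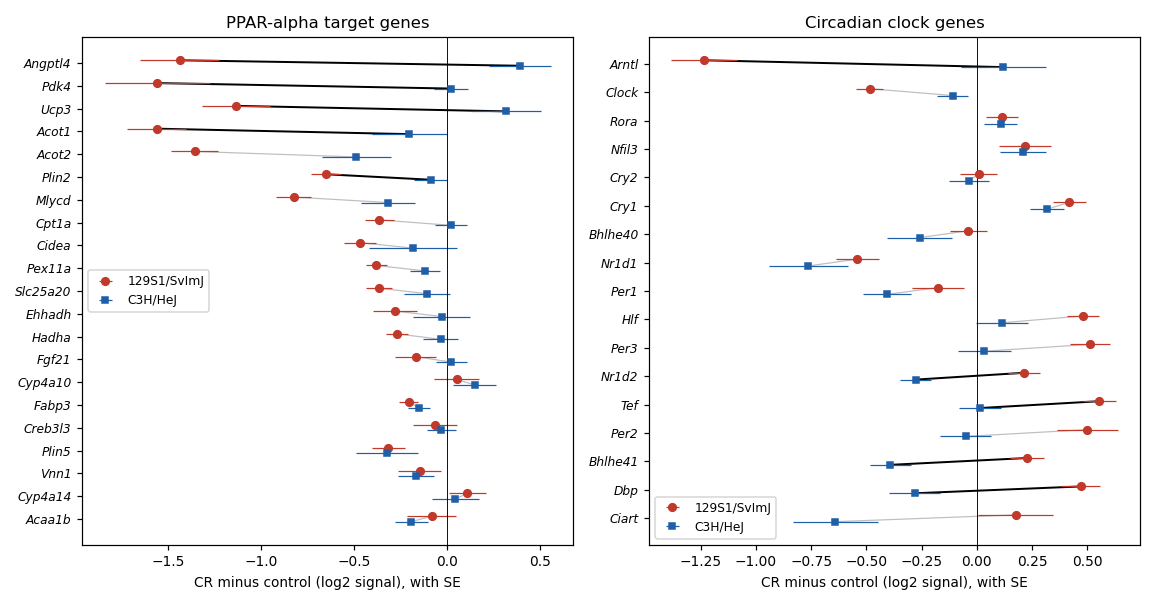
Restriction effect (CR minus control, log2) of each measured PPAR-alpha target and clock gene in 129S1/SvImJ and C3H/HeJ hearts, each with its standard error and joined by a line that is black where the effects differed. Among PPAR-alpha targets 17 of 21 have the lower effect in 129S1/SvImJ, and among clock genes 15 of 17 have the higher one.

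Clock genes differed in both directions. Of 17 measured, 4 (Dbp, Bhlhe41, Tef and Nr1d2) had a passing positive difference, against 0.0802% of all genes. A passing negative one was found for 1 (Arntl), against 0.0953%. The difference was above 0 for 15, and the median was 0.23, against -0.00469 over all genes. Arntl, whose protein is the activator of the loop, was lower in 129S1/SvImJ CR hearts, while Dbp, Tef and Hlf, the PAR bZIP outputs, were higher. In C3H/HeJ no clock gene passed. In 129S1/SvImJ 6 were higher under CR (3.88% of all genes) and 3 lower (2.94%). The median effects were 0.21 in 129S1/SvImJ and -0.05 in C3H/HeJ. With the replicate number as a block within each strain none of the 5 differences passed, and with all 14 groups in 1 fit those of Arntl and Dbp did.

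Arntl was at 4.86, 5.14 and 5.36 in 129S1/SvImJ CR hearts and 5.90, 6.25 and 7.11 in their controls, without overlap. C3H/HeJ hearts had 5.30, 5.39 and 6.05 under CR and 4.64, 5.29 and 6.52 on the control diet, where the control group covered the whole CR range. The difference was -1.35 (SE 0.26, 95% CI -1.88 to -0.83, adjusted p = 0.0171), from effects of -1.23 (adjusted p = 3.15e-05) and 0.12. Clock, the partner of ARNTL, had effects of -0.49 (adjusted p = 4.71e-05, no overlap) and -0.11 and a difference of -0.38 that did not pass (95% CI -0.56 to -0.19, adjusted p = 0.08).

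The promoter of Arntl is shown because its 129S1/SvImJ effect was the largest of the clock genes. It lies at chr7:113207215-113207464 (plus strand, GRCm38.p6, RefSeq, the first of 2 listed starts), with capitals as before.
Arntl: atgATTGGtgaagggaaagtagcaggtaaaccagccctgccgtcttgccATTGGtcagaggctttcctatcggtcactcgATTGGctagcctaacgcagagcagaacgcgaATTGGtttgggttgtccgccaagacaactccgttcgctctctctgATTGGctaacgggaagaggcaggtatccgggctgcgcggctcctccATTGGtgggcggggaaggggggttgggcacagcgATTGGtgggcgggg
It held 7 CCAAT matches, all read as ATTGG, between -247 and -10, and no CACGTG. The promoters of Tef and Bhlhe41 each held 1 CACGTG, and that of Nr1d2 held 1 AGGTCA at -77.

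Dbp, a PAR bZIP activator driven by the clock, had 8.44, 8.87 and 9.05 in 129S1/SvImJ CR hearts and 8.16, 8.38 and 8.58 in controls. In C3H/HeJ it had 7.68, 8.28 and 8.44 under CR and 8.11, 8.48 and 8.84 on the control diet. The medians moved apart in opposite directions, with an effect of 0.47 in 129S1/SvImJ (adjusted p = 0.00245), -0.28 in C3H/HeJ (adjusted p = 0.601) and a difference of 0.75 (SE 0.15, 95% CI 0.45 to 1.06, adjusted p = 0.0244).

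Tef, of the same family, did not overlap in 129S1/SvImJ, at 8.02, 8.23 and 8.36 in CR hearts and 7.44, 7.68 and 7.85 in controls. C3H/HeJ hearts overlapped at 7.73, 7.98 and 8.08 under CR and 7.60, 7.91 and 8.32 on the control diet, for a difference of 0.54 (adjusted p = 0.0495). For the repressors Bhlhe41 (DEC2) and Nr1d2 (REV-ERB-beta) neither strain passed alone. Bhlhe41 had effects of 0.23 and -0.39 with a difference of 0.62 (95% CI 0.37 to 0.87, adjusted p = 0.0234), and Nr1d2 had 0.21 and -0.28 with a difference of 0.49 (95% CI 0.29 to 0.69, adjusted p = 0.0244). Nr1d1, the close relative of Nr1d2, was lower in 129S1/SvImJ CR hearts at -0.54 (adjusted p = 0.00162), had -0.76 in C3H/HeJ (adjusted p = 0.221), and its difference of 0.22 did not pass (adjusted p = 0.907). Per2, Per3 and Cry1, repressors of the loop, were higher in 129S1/SvImJ CR hearts by 0.50, 0.51 and 0.42, with differences of 0.55, 0.48 and 0.10 that did not pass. The clock hour at which each heart was taken is not given in the sources used here, and its part in these differences was not tested.

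**Figure D4:**
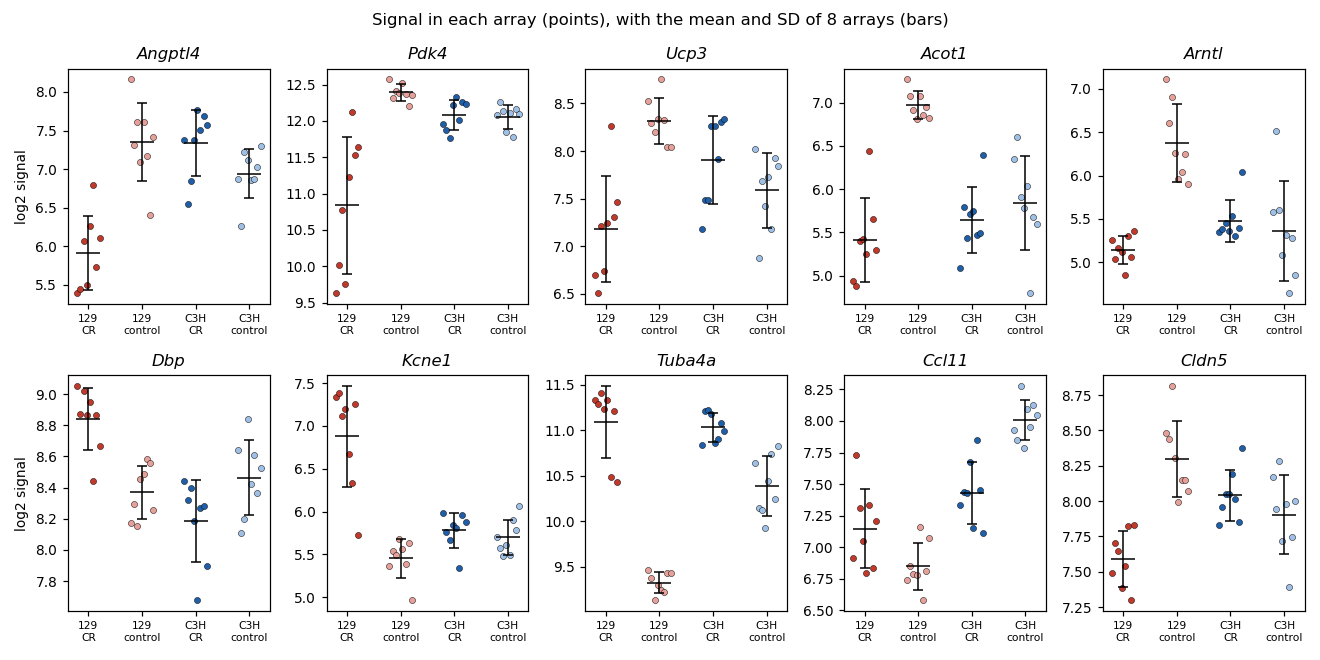
Log2 signal of 10 genes in every array (points), with bars for the mean and SD of 8 arrays, the 129S1/SvImJ CR and control hearts (129) left of the C3H/HeJ CR and control hearts (C3H). Pdk4, Acot1, Arntl and Cldn5 lie lower and Kcne1 and Tuba4a higher in 129S1/SvImJ CR hearts than in any control of that strain.

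Among the genes with a more positive effect in 129S1/SvImJ, Kcne1 and Tuba4a changed most. Kcne1 encodes the small subunit that joins KCNQ1 in the slow delayed rectifier potassium channel. It had 5.73, 7.15 and 7.38 in 129S1/SvImJ CR hearts and 4.97, 5.52 and 5.68 in controls, without overlap. In C3H/HeJ it had 5.34, 5.83 and 5.98 under CR and 5.48, 5.66 and 6.06 on the control diet. The effects were 1.42 and 0.08 and the difference 1.34 (SE 0.23, 95% CI 0.88 to 1.80, 2.53-fold, adjusted p = 0.00609). The lowest 129S1/SvImJ CR value, 5.73, was that of replicate 8. Kcnq1 was higher in 129S1/SvImJ CR hearts by 0.43, had 0.21 in C3H/HeJ, and its difference of 0.22 did not pass (adjusted p = 0.767). Of 22 cardiac ion channel genes Kcne1 was the one with a passing difference (0.0802% of all genes passed in the positive direction). The median difference of the list was -0.01.

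Tuba4a, an alpha-tubulin, passed in both strains and differed between them. It was at 10.43, 11.26 and 11.41 in 129S1/SvImJ CR hearts and 9.13, 9.34 and 9.46 in controls, and at 10.84, 11.03 and 11.22 in C3H/HeJ CR hearts and 9.92, 10.35 and 10.83 in controls. CR arrays lay above control arrays in both strains. The effects were 1.77 (3.40-fold) and 0.65 (1.57-fold) and the difference 1.12 (SE 0.18, 95% CI 0.74 to 1.49, adjusted p = 0.00438). The gap between the strains (129S1/SvImJ minus C3H/HeJ) was 0.06 among CR hearts and -1.06 among control hearts. Of 13 tubulins, 6 were higher under CR in 129S1/SvImJ (3.88% of all genes) and 2, Tuba4a and Tuba8, in C3H/HeJ (0.0251%). The median difference was 0.21, and Tuba4a alone passed (0.0802% of all genes in the positive direction).

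Ccl11 (eotaxin), a chemokine that draws eosinophils, was 1 of the 2 genes that passed in C3H/HeJ and not in 129S1/SvImJ, beside Slco5a1, whose difference did not pass. It had 6.80, 7.13 and 7.73 in 129S1/SvImJ CR hearts and 6.58, 6.80 and 7.16 in controls, and 7.11, 7.43 and 7.85 in C3H/HeJ CR hearts and 7.79, 8.00 and 8.28 in controls. The C3H/HeJ control hearts were thus the highest of the 4 groups, with a slight overlap with the CR hearts of the strain. The C3H/HeJ effect was -0.58 (adjusted p = 0.0325), the 129S1/SvImJ effect 0.30 (adjusted p = 0.14) and the difference 0.88 (SE 0.16, 95% CI 0.56 to 1.20, adjusted p = 0.0115).

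Wfdc1, a secreted protein with a whey acidic protein domain, had 6.99, 7.66 and 7.98 in 129S1/SvImJ CR hearts and 6.16, 6.55 and 6.88 in controls, against 6.77, 7.18 and 7.38 in C3H/HeJ CR hearts and 6.83, 7.00 and 7.28 in C3H/HeJ controls. Only the 129S1/SvImJ groups stood apart, and the difference was 0.87 (SE 0.15, adjusted p = 0.00935). Mylk4, a kinase of the myosin light chain kinase family, Abracl, F3 (tissue factor), the retinoic acid receptor Rarb, the desmosomal protein Perp and the phosphodiesterase Pde1c had differences of 0.71, 0.71, 0.48, 0.46, 0.42 and 0.40. All 6 had CR arrays above control arrays in 129S1/SvImJ, with effects of 0.48 to 0.88, and overlapping groups in C3H/HeJ, with effects of -0.01 to 0.19. Hopx, a homeodomain cofactor of cardiac transcription, also passed (difference 0.35, adjusted p = 0.0376). It was named after its values were seen, as were Grk5, Ube2h and Tril below.

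Outside lipid handling and the clock, Cldn5 and Rnase1 had the largest negative differences. Cldn5, the main tight junction claudin of endothelium, had 7.30, 7.59 and 7.83 in 129S1/SvImJ CR hearts and 7.99, 8.23 and 8.81 in controls, and 7.83, 8.03 and 8.38 in C3H/HeJ CR hearts and 7.39, 7.96 and 8.28 in controls. Groups were apart in 129S1/SvImJ and overlapped in C3H/HeJ, with a difference of -0.84 (SE 0.16, 95% CI -1.17 to -0.52, adjusted p = 0.0171). The other endothelial markers moved less. Of 13, 5 were lower in 129S1/SvImJ CR hearts (Cldn5, Cdh5, Tie1, Kdr and Esam, against 2.94% of all genes), and none passed in C3H/HeJ. Cldn5 alone of these markers had a passing difference (0.0953% of all genes in the negative direction), and the median difference was -0.06. Their mean was 8.28 to 8.55 in 129S1/SvImJ CR hearts and 8.53 to 8.76 in controls, and 8.56 to 8.67 in C3H/HeJ CR hearts and 8.61 to 8.82 in controls. The part of endothelial content in the Cldn5 difference was not tested.

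Rnase1, a secreted ribonuclease, fell in 129S1/SvImJ CR hearts to 5.26, 5.87 and 6.14, against 7.13, 7.37 and 7.80 in controls, and was at 5.70, 5.91 and 6.27 in C3H/HeJ CR hearts and 5.52, 6.54 and 7.08 in controls. Its effects of -1.59 and -0.53 had the same sign, and the difference was -1.07 (SE 0.21, 95% CI -1.50 to -0.63, adjusted p = 0.0244). H1f2, a linker histone, had 9.13, 9.38 and 9.54 in 129S1/SvImJ CR hearts and 9.80, 10.001 and 10.20 in controls. In C3H/HeJ it had 9.17, 9.26 and 9.49 under CR and 9.04, 9.36 and 9.58 on the control diet, so that the 129S1/SvImJ control group stood above the other 3 groups (difference -0.61, SE 0.099, adjusted p = 0.00438). Clmp, an adhesion protein of cell junctions, had effects of -0.74 and -0.10 and a difference of -0.64 (adjusted p = 0.0166), and Txnip, which binds and inhibits thioredoxin, had -0.40 and 0.12 and a difference of -0.52 (adjusted p = 0.029).

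Asb4, a substrate adaptor of a ubiquitin ligase, passed in neither strain alone. It had effects of -0.17 (adjusted p = 0.359) and 0.45 (adjusted p = 0.0899) and a difference of -0.62 (adjusted p = 0.0471). The lysosomal ubiquitin ligase Rnf152, Tcp11l2 and the lysophospholipase Pnpla7 had differences of -0.75, -0.70 and -0.58. Grk5, a kinase that desensitizes G protein-coupled receptors, the ubiquitin-conjugating enzyme Ube2h and Tril had differences of -0.51, -0.47 and -0.45. The remaining 2 of the 35 were olfactory receptor genes. Leaving out each array in turn, 17 of 33 named genes kept a passing difference every time: Angptl4, Pdk4, Ucp3, Acot1, Arntl, Rnase1, Cldn5, Clmp, H1f2, Kcne1, Tuba4a, Ccl11, Wfdc1, Dbp, Abracl, Bhlhe41 and Nr1d2. The other 16 lost it without at least 1 array.

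The strains shared a set of responses. In all, 9 genes passed in both, each in the same direction, and none passed in opposite directions. Tfrc, the transferrin receptor that brings iron into cells, had 6.83, 9.10 and 9.53 in 129S1/SvImJ CR hearts and 5.81, 5.99 and 6.20 in controls, and 8.65, 9.09 and 9.57 in C3H/HeJ CR hearts and 6.56, 6.85 and 8.74 in controls. The CR medians were alike, the 129S1/SvImJ groups did not overlap, and 1 C3H/HeJ control at 8.74 reached into the CR range. Effects of 2.64 (6.22-fold) and 2.00 (3.99-fold) left a difference of 0.64 that did not pass (95% CI -0.23 to 1.51, adjusted p = 0.819). Without the 7 C3H/HeJ arrays high in atrial markers the C3H/HeJ effect was 2.52 and the difference 0.11.

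Alas1, which starts haem synthesis, rose by 1.49 and 0.94 in 129S1/SvImJ and C3H/HeJ CR hearts, and Tuba8, an alpha-tubulin, by 1.15 and 0.79. The iron exporter Slc40a1 (ferroportin) had effects of -1.05 and -0.64, the glutathione synthesis subunit Gclm -1.10 and -0.66, and the aldehyde oxidase Aox1 -1.11 and -0.50. The intervals of the difference were 0.13 to 0.96 for Alas1, -0.08 to 0.80 for Tuba8, -0.74 to -0.09 for Slc40a1, -0.78 to -0.09 for Gclm and -0.91 to -0.31 for Aox1. None of the 5 differences passed after adjustment (adjusted p = 0.483, 0.784, 0.504, 0.507 and 0.08), and each estimate was larger in size in 129S1/SvImJ. Without the C3H/HeJ arrays high in atrial markers, the C3H/HeJ effects were 1.21 for Alas1, 1.04 for Tuba8, -0.77 for Slc40a1, -0.89 for Gclm and -0.60 for Aox1. The differences were then 0.27, 0.10, -0.29, -0.20 and -0.51 in the same order, so that of Aox1 changed least in proportion. Scd4, a stearoyl-CoA desaturase, and the acetylcholine receptor subunit Chrna2 had effects of -1.20 and -0.59 in 129S1/SvImJ and of -0.59 and -0.48 in C3H/HeJ, with adjusted p of 0.498 and 0.957 for the difference.

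Many of the 35 genes differed in level between the strains without restriction. Control hearts of 129S1/SvImJ and C3H/HeJ differed for 27 of them, against 17.1% of all genes, and CR hearts for 17, against 17.2%. For 14 of the 19 genes with the more negative effect the 129S1/SvImJ controls were the higher ones at the threshold, and for 12 of the 16 with the more positive effect they were the lower ones. The gap between control hearts was opposite in sign to the difference of effects for 33 of 35, against 63.6% of all genes. The control arrays enter both quantities, so these counts describe the groups and are not separate evidence. The widest control gap of the 35 was that of a dim olfactory receptor gene, Olfr1033 (2.35). Among the named genes Acot1 (control gap 1.13), Arntl (1.02), Tuba4a (-1.06) and Ccl11 (-1.16) had the wider gaps. Angptl4 (0.41, limma adjusted p = 0.189) and Abracl (0.02) did not differ between control hearts at the threshold.

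The other 5 strains of the series, whose arrays did not enter the selection of the 35 genes, place the pair. The median effect of the 5 lay between the 129S1/SvImJ and C3H/HeJ effects for 32 of 35 genes, against 40.8% of all genes. It was closer to C3H/HeJ for 31. The 129S1/SvImJ effect lay outside the range of the other 5 strains for 27 genes and the C3H/HeJ effect for 8. The 35 were selected because the effects of the pair lie far apart, which favours values in between, so these counts are a description only. C57BL/6J was nearer to 129S1/SvImJ than to C3H/HeJ for 22 of 35 genes (46.3% of all genes) and B6C3F1/J for 14 (53.7%). The counts were 7 for DBA/2J (43.2%), 2 for CBA/J (43.5%) and 1 for BALB/cJ (45.2%). Rations were not alike in these strains. According to the feeding methods, that of C57BL/6J CR mice was also lowered further, and BALB/cJ mice got more food on both diets. CR mice of B6C3F1/J, DBA/2J and CBA/J got the same ration as those of C3H/HeJ. These shares, and the part of the ration in them, were not tested. Angptl4 had effects of -0.81 in C57BL/6J, -0.41 in B6C3F1/J, -0.21 in DBA/2J, 0.42 in BALB/cJ and 0.93 in CBA/J. Pdk4 had -0.88 in B6C3F1/J, -0.59 in C57BL/6J, -0.31 in DBA/2J, 0.31 in BALB/cJ and 0.34 in CBA/J. Arntl followed the same split, with -0.84, -0.47 and -0.33 in C57BL/6J, B6C3F1/J and DBA/2J and 0.18 and 0.17 in BALB/cJ and CBA/J. Kcne1 reached 0.49 in C57BL/6J and 0.46 in B6C3F1/J and was between -0.20 and 0.24 in the other 3. Tuba4a was above 0 in all 5, at 0.38 in CBA/J and 1.93 in C57BL/6J at the ends.

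**Figure D5:**
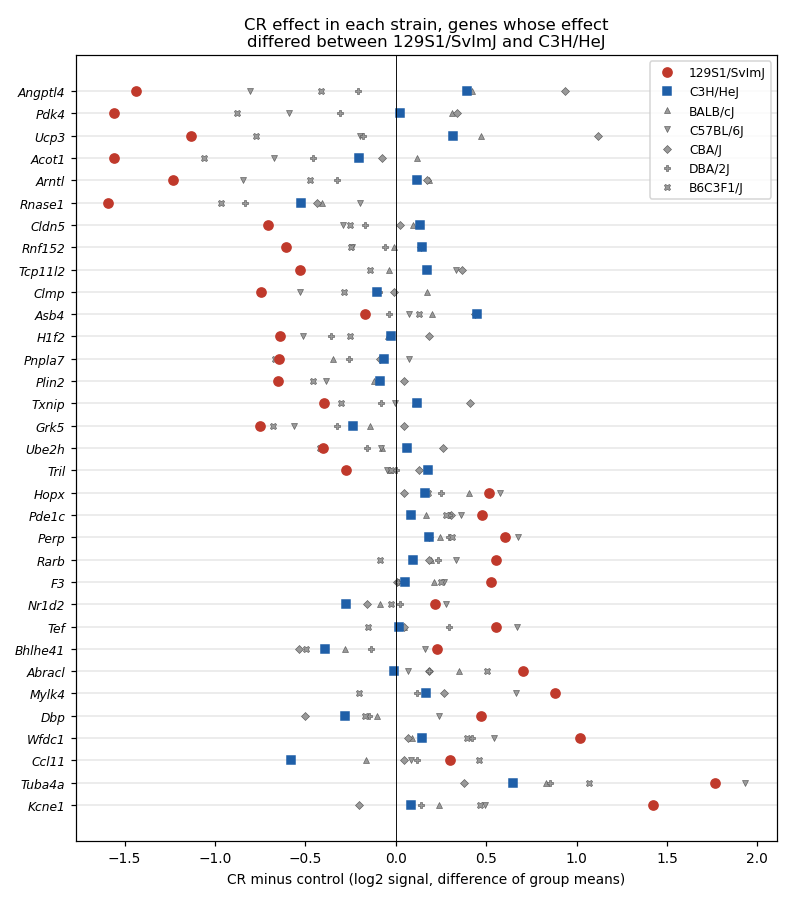
Restriction effect (CR minus control, log2) of 33 genes whose effects differed between 129S1/SvImJ and C3H/HeJ, with 129S1/SvImJ as red circles, C3H/HeJ as blue squares and the other 5 strains in grey. For Angptl4 the grey points run from -0.81 to 0.93, all above the 129S1/SvImJ point at -1.44.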

How the data were processed

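Heart RNA of 7 strains was hybridised to Affymetrix Mouse Gene 1.0 ST arrays. The deposited values are log2 signals that the authors made with the gene-level RMA-Sketch method of Affymetrix Expression Console, which subtracts background, quantile normalizes all arrays together and summarises probes, so that fold changes of dim genes are compressed. No source used here gives its version. The annotation paired 21789 of 35556 probe sets with a single symbol and 1621 with several, and listed none for 12146. The brightest probe set of each gene was kept, which gave 19938 genes.

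Computations used R 4.3.3 with limma 3.58.1 and the data.table package (version 1.17.8), and Python 3.11.15 and matplotlib 3.10.9. Effects within a strain were fitted with lmFit and eBayes on its 16 arrays. The difference of effects was the interaction of strain and diet in the 32 arrays, with Benjamini-Hochberg adjustment over all genes at 0.05. Each array is 1 mouse, and precision is limited by the 8 arrays of a group. Equal replicate numbers were not treated as pairs in the main fits. The correlation of deviations between equal numbers was 0.00897 to 0.229 in 129S1/SvImJ (median 0.0648). In C3H/HeJ it was -0.441 to 0.325 (median -0.1243). These few values cannot show whether the numbers carry a pairing, and fits with the number as a block are given below.

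Genes were named by rule, namely up to 14 passing genes in each direction, up to 4 per gene list, up to 6 shared by both strains and the heart genes the study singled out. The comparison, its genes and the lists were chosen with earlier results of these data known. Promoter windows are those of RefSeq on GRCm38.p6. The test script was checked on simulated data.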

Additional observations from a re-analysis of the deposited data

Results flagged for a closer look

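The restriction effect differed between 129S1/SvImJ and C3H/HeJ by the interaction test for 33 named genes. The difference (129S1/SvImJ minus C3H/HeJ, log2) was negative for Angptl4 (-1.83), Pdk4 (-1.58), Ucp3 (-1.45), Acot1 (-1.36), Arntl (-1.35), Rnase1 (-1.07), Cldn5 (-0.844), Rnf152 (-0.75), Tcp11l2 (-0.699), Clmp (-0.64), Asb4 (-0.616), H1f2 (-0.612), Pnpla7 (-0.579), Plin2 (-0.563), Txnip (-0.517), Grk5 (-0.514), Ube2h (-0.467) and Tril (-0.45). It was positive for Kcne1 (1.34), Tuba4a (1.12), Ccl11 (0.876), Wfdc1 (0.873), Dbp (0.752), Mylk4 (0.715), Abracl (0.713), Bhlhe41 (0.62), Tef (0.54), Nr1d2 (0.492), F3 (0.475), Rarb (0.456), Perp (0.416), Pde1c (0.396) and Hopx (0.353).

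Single arrays stood apart from the other 7 of their group by Dixon's test in 11 of 176 groups of values, and chance gives about 1 in 20. In 129S1/SvImJ CR hearts this was replicate 2 for Ube2h (8.13), and in 129S1/SvImJ control hearts replicate 1 for Nr1d2 (9.119) and replicate 8 for Kcne1 (4.968). In C3H/HeJ CR hearts it was replicate 8 for Arntl (6.045) and replicate 1 for Abracl (6.606). In C3H/HeJ control hearts it was replicate 2 for Angptl4 (6.258) and Clmp (6.328), replicate 7 for Tril (5.28), replicate 6 for Tfrc (8.737) and the PPAR-alpha target mean (7.19), and replicate 1 for the endothelial marker mean (8.823). Control replicate 6 of C3H/HeJ also had the lowest correlation with its group (0.9855) and 1 of the highest atrial means.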

How the results depend on the processing

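The 35 genes kept the sign of their difference in every alternative that tested them. The count of passing differences (35, with 16 higher and 19 lower in 129S1/SvImJ) stayed within 1.5 times under another quantile normalization, array centring, a low-signal filter, averaged probe sets, array weights, a variance trend, unmoderated least squares and a replicate block (30, of which 26 were among the 35). It fell to 12 (5 higher, 7 lower) with all 14 groups in 1 fit, to 13 (5 higher, 8 lower) with the replicate block within each strain, and to 1 (0 higher, 1 lower) without the C3H/HeJ arrays high in atrial markers; with atrial and adipocyte covariates 29 were lower. Leaving out 1 array gave 17 to 62 (higher 8 to 33, lower 9 to 29), the extremes without 129S1/SvImJ CR replicates 4 and 6.

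In 129S1/SvImJ, 1361 genes became 459 (282 higher, 177 lower) in the fit of 14 groups, 438 (223 higher, 215 lower) with the covariates and 1334 with the replicate block. In C3H/HeJ, 11 genes became 17 (10 lower) with array weights, 4 (2 higher, 2 lower) by the methods' t-test (on log2 signals) after adjustment, 6 (2 higher) in the fit of 14 groups, 1 (1 higher, 0 lower) with the replicate block, 71 (44 higher, 27 lower) with the covariates, 26 (19 higher) without the atrial-high arrays, and 1 to 30 (higher 1 to 10, lower 0 to 20) without 1 array, the most without control replicate 6. The methods describe a raw scale for their t-test; here it was run on log2 signals, where at their unadjusted threshold of 0.01 it gave 2104 genes (1139 higher, 965 lower) in 129S1/SvImJ and 435 (285 higher, 150 lower) in C3H/HeJ. The 14-group fit leaves out 1 DBA/2J CR array that the study did not use. The cause of these shifts was not tested.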

Other observations

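Of all genes, 3.88% were higher and 2.94% lower in 129S1/SvImJ CR hearts. There, 25 of 75 mitochondrial ribosomal protein genes were higher and none was lower (median effect 0.17), and 9 of 30 mitochondrial protein import genes were higher and 1 lower (median 0.18). In C3H/HeJ no gene of either list passed, with medians of 0.04 and 0.02. No difference between the strains passed for either list, and the medians of the difference were 0.15 and 0.16, above 0 for 70 of 75 and 26 of 30 genes. Of 53 cytosolic ribosomal proteins 3 were higher in 129S1/SvImJ CR hearts, a share near that of all genes, and none passed in C3H/HeJ or in the difference (median difference 0.15). Their difference was above 0 for 52 of 53 genes, so this lean was not particular to the mitochondrial lists. It was above 0 for 26 of 34 genes of respiratory chain complex I and 32 of 40 of complexes II to V.

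Of 20 NRF2 targets, genes of glutathione synthesis and detoxification, 8 were lower (2.94% of all genes) and 1 higher (3.88%) in 129S1/SvImJ CR hearts. In C3H/HeJ CR hearts 2 were lower (0.0301%). The median difference was -0.05, and no difference passed. Of 19 lipogenesis genes, 1 was higher, a share near the 3.88% of all genes, and 3 were lower, against 2.94%. None passed in C3H/HeJ or in the difference, whose median was -0.24.

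The PPAR-alpha target mean was 6.96 to 7.47 in 129S1/SvImJ CR hearts and 7.55 to 7.86 in 129S1/SvImJ controls, without overlap, and 7.25 to 7.55 in C3H/HeJ CR hearts and 7.19 to 7.65 in C3H/HeJ controls.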
